A study of Homo sapiens with 6 samples.

Results

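The mitochondrial DNA transcription and replication factors described here are 10 nuclear genes, TFAM, TFB1M, TFB2M, POLRMT, TEFM, POLG, POLG2, SSBP1, TOP1MT and NRF1. They were chosen by gene symbol and by no threshold on their values, with earlier results of these data known, and all 10 were found among the 29845 genes of the count table. A549 is an established human lung epithelial cancer cell line. Its cells were transfected with Lipofectamine either with the empty vector pIRES-hrGFP-1a (control, 3 libraries) or with that vector carrying TFAM with a FLAG tag at its 3' end (labelled TFAM-OE, 3 libraries). All 6 libraries therefore share the cell line, the transfection and the vector, and the study set them side by side to find which RNAs respond to extra TFAM. Transfection was transient and no source used here states a sorting step, so each library may hold transfected and untransfected cells together. The study describes the 3 libraries of a group as biological replicates.

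The circular mitochondrial genome is transcribed from promoters on both strands. TFAM bends the promoter DNA and also coats the whole genome into nucleoids, TFB2M opens the promoter, and POLRMT, the single-subunit RNA polymerase, makes the transcript, which TEFM helps to elongate. The same polymerase primes replication, which POLG carries out with its accessory subunit POLG2 and the single-strand binding protein SSBP1, while TOP1MT relieves supercoils. NRF1 is a nuclear transcription factor known for driving many of these genes.

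The deposited counts summed to between 26650854 and 37321956 reads per library, and 16555 genes passed the filter on low counts, all 10 factors among them. The A549 and epithelial markers were present in all libraries (KRT19 at 125 to 161 and CDH1 at 3.76 to 8.29 CPM, counts-per-million of the library), and 1 of 11, ALDH3A1, passed the test (log2 fold change 0.59, adjusted p = 0.013 by edgeR). Of 9 markers of other cell types, 7 were in the table. COL1A1, a collagen of fibroblasts, had 2.60 to 4.76 CPM and the other 6 had at most 0.165 CPM. Their part in the results below was not tested. In RNA from bulk cells, fewer cells of a type and less RNA per cell cannot be told apart.

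None of the 10 factors passed the test when the libraries labelled TFAM-OE were set against the control. In edgeR's quasi-likelihood test with Benjamini-Hochberg adjustment over all genes, 0 of 10 had an adjusted p below 0.05. Of all genes tested 8.29% did (3.48% higher and 4.81% lower in the libraries labelled TFAM-OE), so 0 of 10 is near the background. At an unadjusted p below 0.05 there was 1 of the 10, TOP1MT, beside 4208 of the 16555 genes tested. DESeq2, edgeR's exact test, limma-voom and limma-trend also called 0 of the 10. With a fold change of at least 2 added to the rule, which 2.51% of all genes met, the count was again 0. The log2 fold changes of the 10 ran from -0.22 (POLG) to 0.28 (TFB1M), and their median was 0.10 beside -0.01 for all genes tested.

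**Figure D1:**
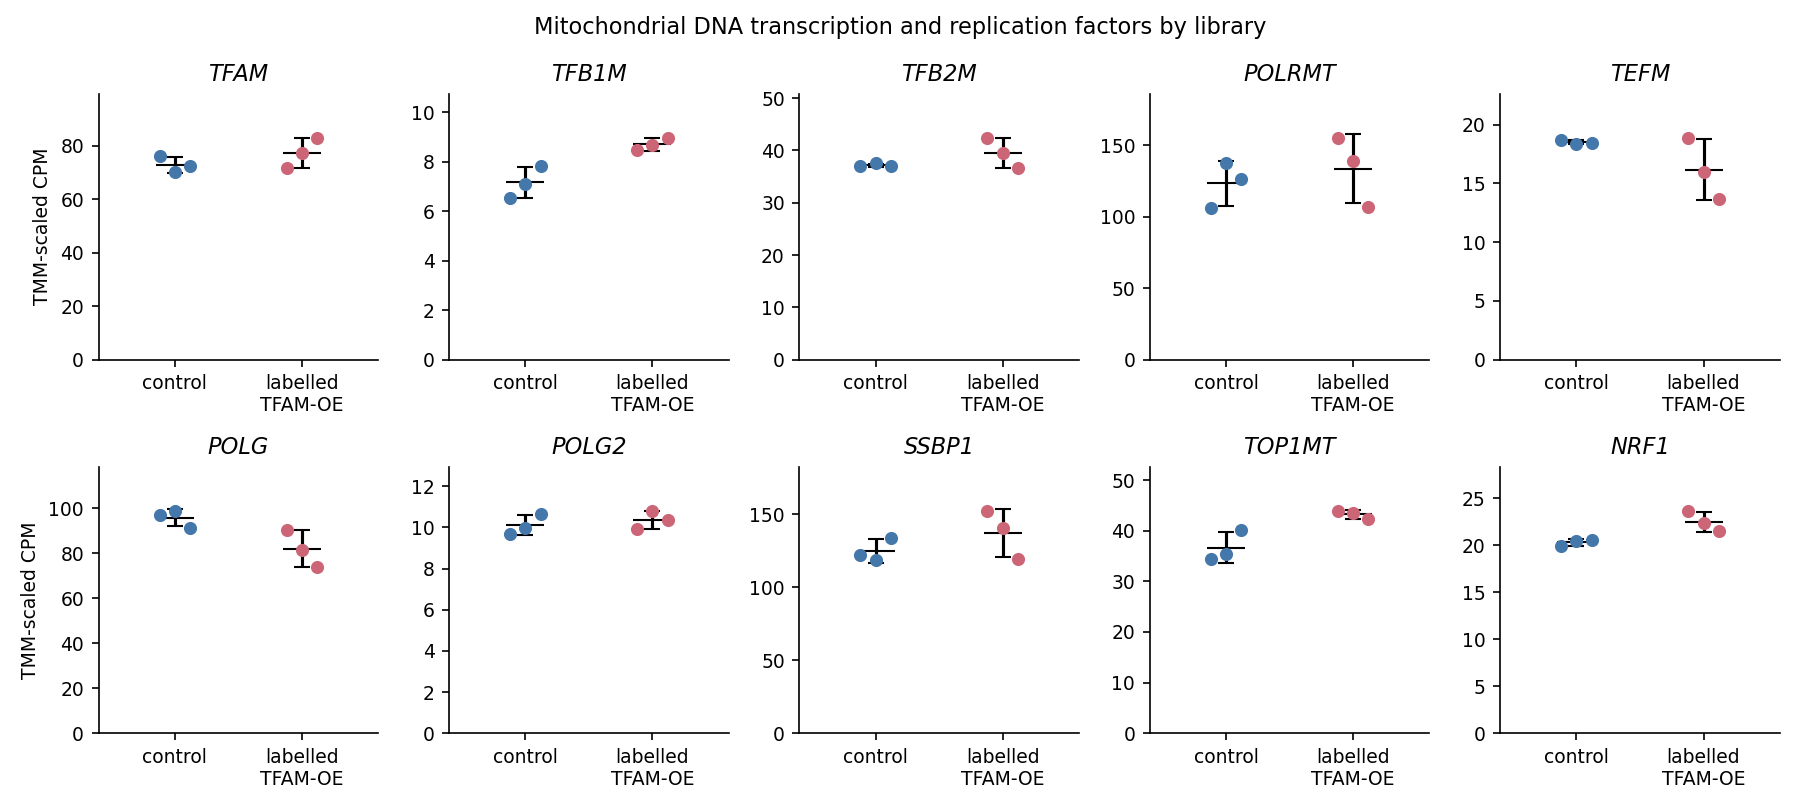
Counts-per-million (CPM, TMM-scaled, y axes from 0) of each of the 10 factors in each library of the control and of the group labelled TFAM-OE. Points are libraries and bars are the mean and SD of a group. The points of the groups do not overlap for TFB1M, TOP1MT and NRF1 (higher in the libraries labelled TFAM-OE) and for POLG (lower), while those of the other 6 genes do.

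TFAM itself (ENSG00000108064.10; GRCh38 chromosome 10, 58385345 to 58399220, plus strand) was the gene carried by the plasmid. Its main transcript in GENCODE version 44 has 7 exons and 5025 bases, of which 738, or 14.7%, are coding. The cloning primers matched the ends of the coding sequence, so the plasmid RNA would share only that stretch with the gene, without the untranslated regions. The ends of the coding sequence are shown because they bound what plasmid and gene have in common, with the start codon in capitals.
TFAM coding sequence, bases 1 to 60: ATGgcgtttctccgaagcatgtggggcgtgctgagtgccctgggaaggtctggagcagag
TFAM coding sequence, bases 679 to 738: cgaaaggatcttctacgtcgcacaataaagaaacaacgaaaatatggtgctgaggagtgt
TFAM had 76.0, 70.1 and 72.6 CPM in control replicates 1, 2 and 3, and 71.8, 77.2 and 83.0 CPM in TFAM-OE replicates 1, 2 and 3. The groups overlapped, with TFAM-OE replicate 1 below control replicates 1 and 3. The means were 72.9 ± 2.97 and 77.3 ± 5.58 CPM (SD, n = 3 each), and the log2 fold change was 0.08 (SE 0.096, 95% interval -0.13 to 0.30, edgeR adjusted p = 0.623). On the linear scale the interval ran from 0.914 to 1.23, so a rise of more than 1.23-fold in the reads counted for the gene lies outside it. The targeted gene therefore did not pass the test in the libraries labelled TFAM-OE. The study checked for the tagged protein by western blot against the FLAG tag and reports that the overexpression succeeded. That is a measure of protein and is not analysed here. Reads from the plasmid and from the chromosome cannot be told apart in a count per gene, and whether the authors' counting took in plasmid reads was not tested. The pseudogene TFAMP1 had at most 1 read in any library.

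Of TFB1M and the transcription factors TFB2M, POLRMT and TEFM, TFB1M came nearest to a difference, and TFB2M, POLRMT and TEFM did not separate the groups in CPM. TFB1M (ENSG00000029639.10; chromosome 6, 155256134 to 155314493, minus strand) is related to TFB2M and methylates the small ribosomal RNA of mitochondria. It had 6.55, 7.09 and 7.83 CPM in the control and 8.46, 8.66 and 8.96 CPM in the libraries labelled TFAM-OE. All 3 of the latter lay above all 3 controls, yet the log2 fold change of 0.28 (SE 0.133, 95% interval -0.02 to 0.58) had an adjusted p of 0.221 in edgeR. TFB1M rested on the fewest reads of the 10 genes, 190 to 315 per library. Of the 2799 bases of its main transcript, 1590 lie inside TIAM2 on the opposite strand, and TIAM2 had 19 to 50 reads per library. On the same strand, 591 of the bases lie inside a long noncoding RNA gene. Whether counting used strand is not stated in the sources used here.

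TFB2M (ENSG00000162851.7; chromosome 1, 246540561 to 246566261, minus strand), which melts the mitochondrial promoter, had 37.0, 37.6 and 37.1 CPM in the control and 42.4, 39.5 and 36.6 CPM in the libraries labelled TFAM-OE. Replicates 1 and 2 of TFAM-OE were above every control and replicate 3 was below every control. The log2 fold change was 0.09 (SE 0.101, 95% interval -0.14 to 0.31, edgeR adjusted p = 0.633). POLRMT (ENSG00000099821.13; chromosome 19, 617221 to 633537, minus strand) had 106, 138 and 127 CPM in the control and 155, 139 and 107 CPM in the libraries labelled TFAM-OE. Its spread within a group was the widest of the 10 on the CPM scale (SD 15.8 and 24.4 CPM), and the log2 fold change of 0.12 had a 95% interval of -0.21 to 0.44 (edgeR adjusted p = 0.665). Without TFAM-OE replicate 1, the difference in POLRMT changed sign, to a log2 fold change of -0.003. TEFM (ENSG00000172171.10; chromosome 17, 30897336 to 30906238, minus strand), the elongation factor, had 18.7, 18.4 and 18.4 CPM in the control and 18.9, 15.9 and 13.7 CPM in the libraries labelled TFAM-OE. The controls were close together, whereas TFAM-OE replicate 1 was above them and replicates 2 and 3 were below. The log2 fold change of TEFM was -0.19 (95% interval -0.50 to 0.11, edgeR adjusted p = 0.404). Of the 1306 bases of its main transcript, 497 lie inside a long noncoding RNA gene on the opposite strand.

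In the replication machinery, the catalytic subunit POLG was lower and the topoisomerase TOP1MT higher in every library labelled TFAM-OE, and neither passed the test. POLG (ENSG00000140521.11; chromosome 15, 89305198 to 89334861, minus strand) had 97.2, 98.7 and 91.5 CPM in the control and 90.4, 81.6 and 74.0 CPM in the libraries labelled TFAM-OE. The gap between the nearest libraries, 91.5 and 90.4 CPM, was small beside the spread within the TFAM-OE group (SD 8.25 CPM). The log2 fold change was -0.22 (SE 0.102, unadjusted p = 0.0525, edgeR adjusted p = 0.202). Of the bases of its main transcript, 508 lie inside FANCI on the opposite strand and 783 inside POLGARF on its own strand. POLGARF was not found by that name among the counted genes. Whether any reads of POLG and FANCI were counted together was not tested. The read count of FANCI was 1690, 1521 and 2047 in control libraries and 1435, 2234 and 2396 in those labelled TFAM-OE.

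TOP1MT (ENSG00000184428.12; chromosome 8, minus strand) had 34.4, 35.4 and 40.1 CPM in the control and 43.8, 43.6 and 42.2 CPM in the libraries labelled TFAM-OE. The 3 libraries labelled TFAM-OE were close together and above the highest control. Its log2 fold change of 0.24 (SE 0.102, 95% interval 0.01 to 0.47) had an unadjusted p of 0.0428 and an adjusted p of 0.179 in edgeR. POLG2 (ENSG00000256525.6; chromosome 17, 64477785 to 64497054, minus strand), which holds POLG on the DNA, had 9.70, 9.97 and 10.6 CPM in the control and 9.91, 10.8 and 10.4 CPM in the libraries labelled TFAM-OE. The groups overlapped, and the log2 fold change of 0.03 was the smallest of the 10 (95% interval -0.24 to 0.31, edgeR adjusted p = 0.890). SSBP1 (ENSG00000106028.10; chromosome 7, 141738334 to 141787922, plus strand) had 122, 119 and 134 CPM in the control and 152, 141 and 120 CPM in the libraries labelled TFAM-OE. TFAM-OE replicates 1 and 2 were above every control and replicate 3 was not, and the log2 fold change was 0.14 (95% interval -0.11 to 0.38, edgeR adjusted p = 0.467).

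NRF1 (ENSG00000106459.14; chromosome 7, 129611720 to 129757082, plus strand), the nuclear regulator of the group, had 19.9, 20.5 and 20.6 CPM in the control and 23.6, 22.3 and 21.5 CPM in the libraries labelled TFAM-OE. All 3 libraries labelled TFAM-OE were above the highest control, by a small margin in replicate 3. The log2 fold change was 0.15 (SE 0.105, 95% interval -0.09 to 0.38, edgeR adjusted p = 0.416).

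Counted over the 10 factors, the groups did not overlap for 4 genes, 3 of them higher and 1 lower in the libraries labelled TFAM-OE. Among all genes tested, 31.7% did not overlap (15.8% higher and 15.8% lower), so 4 of 10 is near the background. The count depended on the scale. On library size alone TEFM also separated (lower), on the deposited FPKM both TEFM (lower) and TFB2M (higher) did, and with upper quartile scaling POLG did not. The sign of the fold change was positive for 8 factors and negative for TEFM and POLG.

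**Figure D2:**
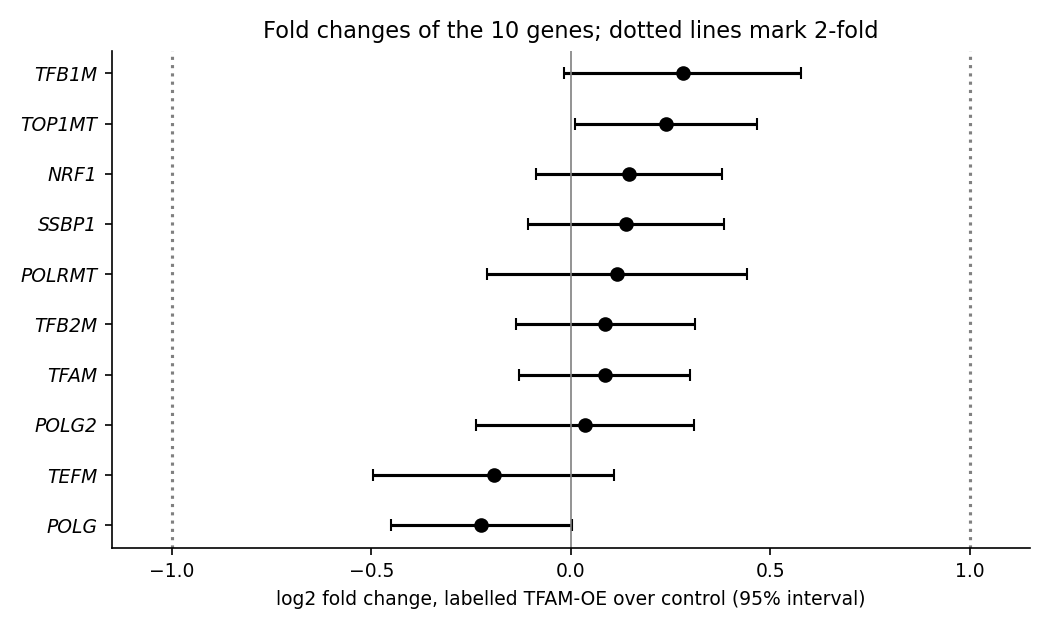
Log2 fold change of each of the 10 factors, labelled TFAM-OE over control, with its 95% interval from the edgeR fit (x axis, log2 scale). The estimates run from -0.22 for POLG to 0.28 for TFB1M, and the interval of TOP1MT alone leaves out 0, before adjustment for multiple tests.

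NRF1 binds a GC-rich palindrome, and its letters were looked for in the promoters of the factors. RefSeq windows (GRCh38.p14, from 250 bases before to 50 after a gene start) were at hand for 8 of the 10, without TOP1MT and NRF1. These 8 genes had 10 windows. Counts below are per gene and shares are per window, so a gene with more than 1 window had more chances of a match. On either strand, the letters GCGC, any base and TGCGC in a row were found in 4 of these 8 (TFAM, TFB1M, POLRMT and POLG2), and in 5.78% of all 35116 windows. The shorter GCATGCGC, which can lie inside the longer motif, was found in TFB1M, TFB2M and POLRMT and in 3.05% of all windows. The ETS-type letters CCGGAAG were found in 5 of the 8 (TFB1M, POLRMT, TEFM, POLG2 and SSBP1) and in 10.3% of all windows. The motifs were chosen after the windows had been read. The stretches around the NRF1-type letters, on the strand of the gene and with those letters in capitals, are shown because these promoters carry the sequence that a member of the group binds.
TFAM, chr10:58385322-58385381, plus strand: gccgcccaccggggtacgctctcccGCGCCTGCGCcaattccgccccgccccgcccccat
TFB1M, chr6:155314582-155314641, minus strand: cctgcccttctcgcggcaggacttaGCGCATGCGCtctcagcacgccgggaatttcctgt
TFB2M, chr1:246566243-246566302, minus strand: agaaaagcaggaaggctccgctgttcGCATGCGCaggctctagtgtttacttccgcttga
POLRMT, chr19:633524-633583, minus strand: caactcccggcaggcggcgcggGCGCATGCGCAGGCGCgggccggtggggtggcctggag
POLG2, chr17:64497034-64497093, minus strand: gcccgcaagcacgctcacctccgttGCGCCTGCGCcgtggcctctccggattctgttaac
Positions are counted from the gene start of RefSeq, which is not the GENCODE start given above for TFAM and TFB1M, and in TFAM the match lies just inside the gene as GENCODE bounds it. The matches shown began at base -63 in TFAM, -132 in TFB1M, -15 in TFB2M, -24 and -18 in POLRMT and -14 in POLG2. In POLRMT the capitals cover 2 overlapping matches, and the shorter letters also occur at -132, outside the stretch shown. These are matches of letters only, and no binding was measured. The 5 genes with NRF1-type letters had log2 fold changes of 0.08, 0.28, 0.09, 0.12 and 0.03 in the order printed, none past the test.

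Levels between genes were compared per length, with the deposited FPKM. SSBP1 was highest with a mean of 74.1 FPKM over the 6 libraries (67.4 to 81.5), followed by POLRMT with 28.3 FPKM (24.4 to 32.5). TFB2M (17.6 FPKM), POLG (16.7 FPKM) and TOP1MT (14.2 FPKM) came next, then TFAM with 11.8 FPKM (10.6 to 13.6). POLG2, TEFM, NRF1 and TFB1M had 5.54, 5.44, 4.91 and 4.72 FPKM. The ranges of neighbours in this order were apart for SSBP1 and POLRMT, for POLRMT and TFB2M, and for TFAM and POLG2. The ranges of the other neighbours overlapped, although TOP1MT was above TFAM in 6 of 6 libraries. The order rests on the gene lengths behind the FPKM values. Reads per kilobase of the main GENCODE transcript gave the same first 3 genes and the same last gene, but TOP1MT came before POLG and TEFM before POLG2.

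**Figure D3:**
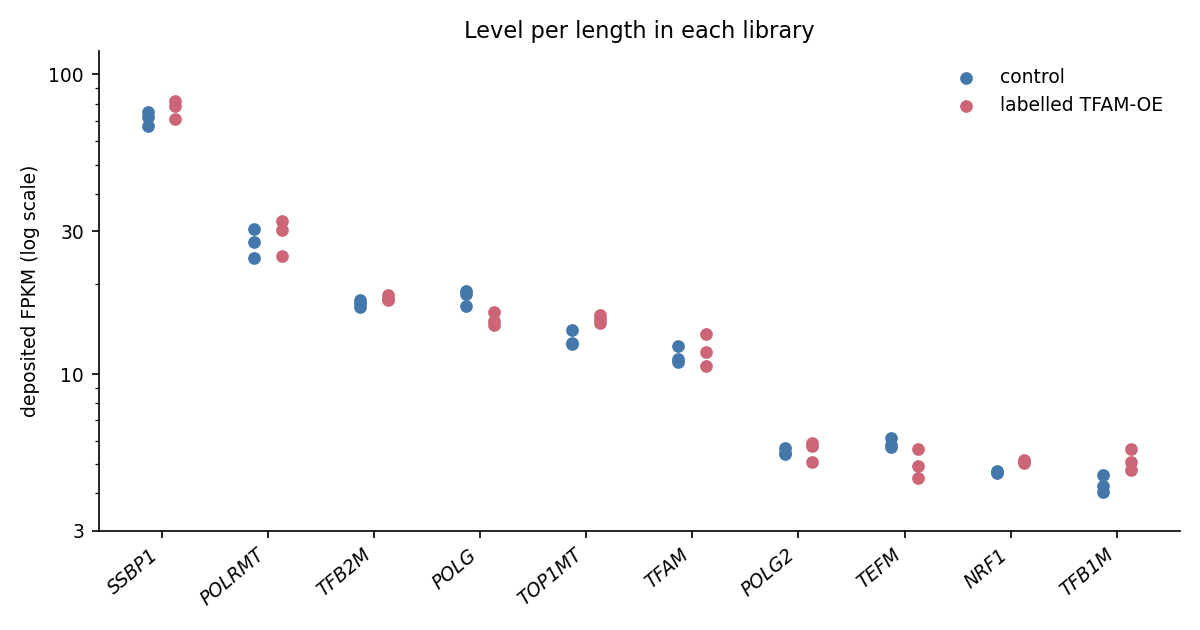
Deposited FPKM of the 10 factors in each of the 6 libraries, in the order of their means (FPKM on a log axis). SSBP1 and POLRMT stand above the others, and POLG2, TEFM, NRF1 and TFB1M are lowest on this scale, with means between 4.72 and 5.54 FPKM. The place of TEFM depends on the gene length used.

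The balance between partners within a library was taken as a ratio of FPKM values, for 3 pairs. POLG over POLG2, the catalytic over the accessory subunit, was 3.47, 3.43 and 2.98 in the control and 3.16, 2.62 and 2.47 in the libraries labelled TFAM-OE (means 3.29 ± 0.274 and 2.75 ± 0.363, SD, n = 3 each). The groups overlapped, since TFAM-OE replicate 1 was above control replicate 3 (exact permutation test on log2 ratios, two-sided, p = 0.2, adjusted over 3 ratios 0.3). TFB2M over TFB1M was 4.35, 4.08 and 3.65 in the control and 3.86, 3.51 and 3.14 in the libraries labelled TFAM-OE (exact permutation p = 0.2, adjusted 0.3). POLRMT over TFAM varied most, with 1.98, 2.77 and 2.46 against 3.05, 2.54 and 1.82, and gave p = 0.9 (adjusted 0.9) in the exact permutation test. With 3 libraries against 3 this exact permutation test cannot go below p = 0.1.

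The genes whose level followed that of TFAM most closely were ranked by the SD, over the 6 libraries, of the log2 ratio of their CPM to that of TFAM. DAG1 (SD 0.0161), SETD1A (0.0164) and DDX1 (0.0208) came first of 16554 genes. Of the other factors, POLG2 was nearest to TFAM, at rank 656 (SD 0.0900), then NRF1 at rank 1793 (SD 0.124). POLRMT was the farthest of the factors, at rank 10592 (SD 0.285). This is a description of 6 libraries, which share the group difference.

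The wider pathway was followed in 6 lists of 62 genes, of which 61 passed the filter on low counts and PPARGC1A, a coactivator of NRF1, did not. In the libraries labelled TFAM-OE 0 of the 61 rose and 4 fell by edgeR, and their median log2 fold change was -0.02. Of all genes tested 4.81% fell, so 4 of 61 is near the background. The list of replication and end processing (TWNK, PRIMPOL, MGME1, RNASEH1 and others) had 0 of 10 past the test and a median of 0.11. Termination factors and partners of the polymerase (MTERF1 to MTERF4 and MRPL12) had 0 of 5 and a median of -0.02. Proteins of the nucleoid and the proteases that turn them over had 0 of 7 and a median of 0.13, LONP1, the protease that degrades TFAM, among them at 0.11. The nuclear regulators had 0 of 10 and a median of -0.05.

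The 4 genes that fell came from the lists of RNA processing and decay and of deoxynucleotide supply. In the list of RNA processing and decay, 1 of 20 passed the test, PNPT1, the polynucleotide phosphorylase of mitochondria. PNPT1 had 163, 183 and 188 CPM in the control and 81.4, 79.9 and 77.9 CPM in the libraries labelled TFAM-OE (log2 fold change -1.16, SE 0.094, edgeR adjusted p = 1.1e-04). In the list of deoxynucleotide supply, 3 of 9 fell, beside 4.81% of all genes tested, and the others of that list, which like the factors was chosen with earlier results known, gave log2 fold changes between -0.30 (RRM2B) and 0.27 (TK2). CMPK2, a mitochondrial nucleotide kinase, fell from 52.1, 77.2 and 80.9 CPM to 11.0, 8.17 and 5.36 CPM (log2 fold change -3.09, SE 0.255, edgeR adjusted p = 1.1e-04). SAMHD1, which cleaves deoxynucleotides, fell from 97.0, 107 and 107 CPM to 38.9, 39.0 and 38.2 CPM (log2 fold change -1.42, SE 0.093, edgeR adjusted p = 3.1e-05). TYMP, the thymidine phosphorylase, fell from 55.0, 76.2 and 71.7 CPM to 41.0, 34.2 and 28.1 CPM (log2 fold change -0.97, SE 0.162, edgeR adjusted p = 0.0077). For each of the 4, every library labelled TFAM-OE was below every control, which held for 15.8% of all genes tested. The 4 were named because they passed the test in these same libraries, so this adds no separate evidence. All 4 are also known as interferon-induced genes. Without TFAM-OE replicate 3, 11 genes of the 6 lists passed the test, 5 higher and 6 lower, and the 4 named here were among them. In that fit 3214 of all 16941 genes tested passed, 1428 higher and 1786 lower, so the count of calls was larger among all genes too.

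**Figure D4:**
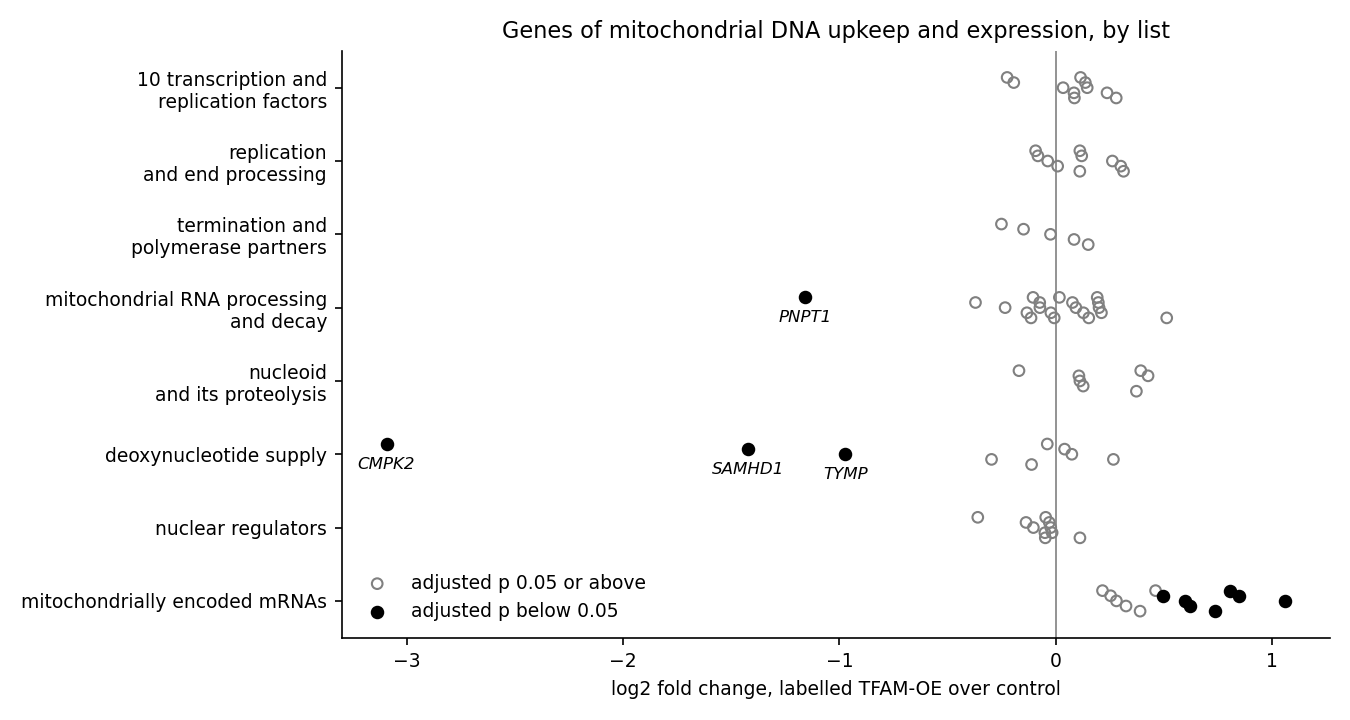
Log2 fold change (labelled TFAM-OE over control) of each tested gene of the factors, of the 6 pathway lists and of the mitochondrially encoded mRNAs, each point 1 gene. Filled points are past the adjusted threshold, in the pathway lists PNPT1, TYMP, SAMHD1 and CMPK2, and the other genes of these lists lie between -0.37 (PTCD2) and 0.51 (FASTK), while the 13 mitochondrially encoded mRNAs lie between 0.22 and 1.06.

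Part of the product of this machinery, the mRNAs of the mitochondrial genome, was measured in the same libraries, and some of them passed the test. Of the 13 mitochondrially encoded mRNAs 7 rose and 0 fell in the libraries labelled TFAM-OE by edgeR, with a median log2 fold change of 0.49, and 3.48% of all genes tested rose. For all 13, every library labelled TFAM-OE was above every control, which held for 15.8% of all genes tested. The 13 are transcribed from the same small genome and were read in the same libraries, so they are not 13 separate observations. MT-CO3, a subunit of cytochrome c oxidase, had 1499, 1550 and 2031 CPM in the control and 3775, 3292 and 3525 CPM in the libraries labelled TFAM-OE (log2 fold change 1.06, SE 0.135, edgeR adjusted p = 0.0021). The ATP synthase subunits MT-ATP8 (0.85, adjusted p = 0.0029) and MT-ATP6 (0.81, adjusted p = 0.0034), which share 46 bases, were next on the log2 scale. MT-ND3 (0.62), MT-ND5 (0.60) and MT-CYB (0.49) also rose, with edgeR adjusted p between 0.0056 and 0.018. MT-CO2 (0.46), MT-CO1 (0.39), MT-ND2 (0.33), MT-ND4L (0.28), MT-ND4 (0.25) and MT-ND1 (0.22) did not pass, with edgeR adjusted p from 0.0502 to 0.225.

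MT-ND6, on the minus strand of the mitochondrial genome (14149 to 14673), is the only 1 of the 13 mRNAs made from the light-strand promoter. It had 52.0, 51.1 and 52.0 CPM in the control and 73.8, 82.6 and 102 CPM in the libraries labelled TFAM-OE (log2 fold change 0.74, SE 0.123, edgeR adjusted p = 0.0077). The other 6 mRNAs that rose are on the opposite strand. If counting did not use strand, antisense transcripts across MT-ND6 would be counted with it. Together the 13 mRNAs took 2.13%, 2.09% and 2.21% of the counts in the control and 3.09%, 2.76% and 3.06% in the libraries labelled TFAM-OE, a difference of 0.828 percentage points (exact permutation test, two-sided, p = 0.1, the smallest that 3 against 3 libraries allow). In place of 7, 3 of the mRNAs passed the test without control replicate 2, where 66 of all 16859 genes tested were higher. Without TFAM-OE replicate 3, 10 passed, where 1428 of all 16941 genes tested were higher. The libraries were made from polyadenylated RNA, and mitochondrial DNA was not measured, so copies of the genome and transcripts per copy cannot be told apart. The RNA of the 10 factors and the mRNAs of the genome they serve are given side by side, and a relation between them was not tested.

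**Figure D5:**
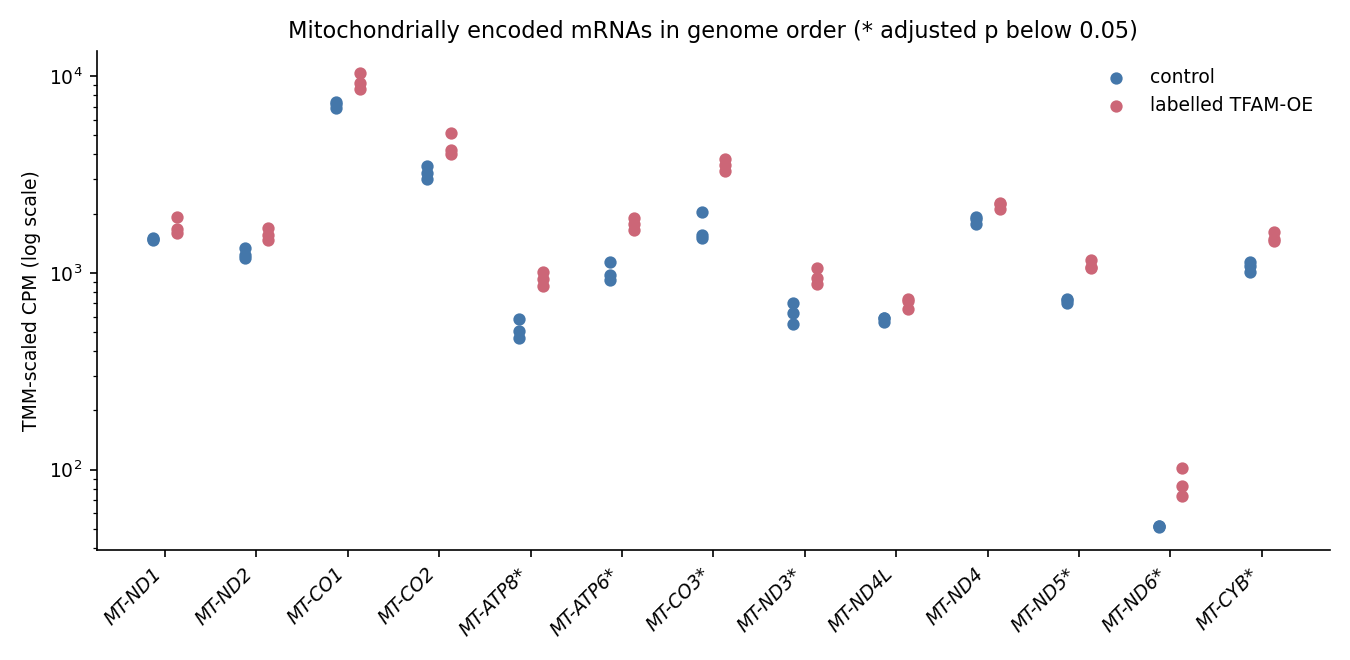
Counts-per-million (TMM-scaled, log axis) of the 13 mitochondrially encoded mRNAs in the 6 libraries, control and labelled TFAM-OE. For each mRNA the 3 libraries labelled TFAM-OE lie above the 3 controls, with the widest gap in MT-CO3.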

How the data were processed

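RNA of A549 cells was sequenced in 6 poly(A)-selected libraries, 3 controls and 3 labelled TFAM-OE. Reads were trimmed by the authors and aligned with TopHat2 (GRCh38), and the authors deposited for each library a count of uniquely mapped reads and an FPKM value for each gene, without pooling. For the counting program, its annotation and its use of strand, no source used here gives a name or setting. Groups were taken from the labels.

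The two-sided quasi-likelihood F-test of edgeR (4.0.16, R 4.3.3) was run after filterByExpr (16555 of 29845 genes) and TMM scaling, with Benjamini-Hochberg adjustment over all genes tested and a threshold of 0.05. Log2 fold changes are the libraries labelled TFAM-OE over the control, and CPM values are TMM-scaled. The deposited FPKM values were used for levels per length and for ratios. Totals of 26650854 to 37321956 reads limit counting error only, since reads carry no molecular identifiers, and differences are only as precise as 3 libraries per group allow. DESeq2 (1.42.0), edgeR's exact test, limma (3.58.1) as voom and trend, other scalings and filters, a replicate block and each library left out were tried as alternatives, and those for the ratios, for the number of mitochondrially encoded mRNAs past the threshold and for the scaling of non-overlapping groups were added to these after the data were seen.

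The members and lists were chosen with earlier results of these data known. Named were the 10 factors and their pseudogenes with reads, at most 3 genes past the threshold per list, the 13 mitochondrially encoded mRNAs and the 3 genes nearest to TFAM. Other genes are named as markers, as overlapping genes or as examples of a list. Older symbols were matched for TWNK, PRORP and PHB1. Gene models are from GENCODE (44), which held 97.2% of the gene IDs, and promoter windows from RefSeq (GRCh38.p14). Scripts used Python (3.11.15), pandas (2.3.3) and matplotlib (3.10.9).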

Additional observations from a re-analysis of the deposited data

How the results depend on the processing

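Under all 17 alternatives 0 of the 10 factors passed the adjusted threshold. Between 0 and 3 had an unadjusted p below 0.05, with 3 when TFAM-OE replicate 3 was left out. In the main fit 1 of the 10 had such a p, beside 4208 of the 16555 genes tested. The log2 fold change of TFAM ran from 0.04 to 0.14, with edgeR, DESeq2 or limma adjusted p between 0.460 and 0.824. With single libraries left out, that of POLRMT ran from -0.0034 to 0.26, negative without TFAM-OE replicate 1, and the log2 difference in POLRMT over TFAM ran from -0.15 to 0.23 around the main 0.02. That ratio changed sign without control replicate 1 (-0.11), TFAM-OE replicate 1 (-0.15) or TFAM-OE replicate 2 (-0.01). The other factors kept their sign.

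Of all genes, 1372 passed, against 2519 with every gene that had a read, 2216 with edgeR's exact test, 2040 with DESeq2 and 306 to 3214 with a library left out (306 without control replicate 2, 3214 without TFAM-OE replicate 3). Of the pathway lists 4 genes passed, 7 with every gene that had a read and 3 to 11 with a library left out. Of the mitochondrially encoded mRNAs 7 passed, 3 to 10 with a library left out. The causes were not tested. With the replicate numbers as a block, 359 genes and 4 mitochondrially encoded mRNAs passed, and 3 of the 4 pathway genes. Same-numbered libraries did not deviate together (correlations -0.27, 0.02 and -0.32). Control 1 with TFAM-OE 3 and control 3 with TFAM-OE 1 each gave 0.30. With deviations from the mean of only 3 libraries per group, this check cannot tell whether libraries were handled together. The median log2 fold change of all genes tested was -0.030 with library size alone. Over all alternatives it was lowest at -0.036, with limma-trend on log2(FPKM + 0.1). With 190 to 315 reads per library, TFB1M is the factor most limited by depth.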
